A study of Mus musculus with 1073 samples.

Results

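The genes described are 6 transcription factors of the myeloid lineage, *Spi1*, *Irf8*, *Irf5*, *Cebpa*, *Cebpb* and *Maf*, followed through single cells of the mouse yolk sac. They were taken by name, and all 6 of 6 are among the 15967 genes of the filtered count table and of the matching table of normalised levels. The question was in which order they appear in haematopoietic progenitor/colony forming cells (HPC) between E8.25 and E10.5, and where else in the yolk sac they are found. Myeloid cells such as macrophages are specified by a small set of transcription factors that act together on the enhancers of lineage genes. *Spi1* encodes PU.1, an ETS family factor required for macrophages and an activator of the *Csf1r* receptor gene. *Irf8* and *Irf5* encode interferon regulatory factors, the first a PU.1 partner in monocytes and tissue macrophages and the second a factor of inflammatory signalling downstream of Toll-like receptors. *Cebpa* and *Cebpb* encode C/EBP leucine zipper proteins, used in granulocyte and monocyte commitment and in inflammatory responses respectively. *Maf* encodes c-MAF, a large MAF protein that is active in mature macrophages and also in other tissues, endothelium included.

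Single cells of 13 sorted yolk sac populations were captured on the Fluidigm C1 system, and 926 of 1073 captured cells were kept by the authors' filter. HPCs, which the sample titles call Erythro-Myeloid Progenitors (EMP), came from C57BL/6 embryos and were gated as TER119- CDH5+ CD41+ at E8.25 (73 cells) and E8.5 (89 cells), and as TER119- CDH5- CD45+ CD41low at E9.5 (46 cells) and E10.5 (87 cells). Macrophages (Mac, 25 cells, E10.5) were TER119- CDH5- CD41- CD45+. The other populations were Flk1-GFP+ mesodermal derivatives of Flk1-GFP/+ embryos at E7.25 and E7.75 (140 cells at the latter), megakaryocytes (Mk) at E8.5 (37 cells, TER119- CDH5- CD41+) and E10.5 (73 cells, TER119- CDH5- CD45- CD41high), primitive erythrocytes (EryP) at E8.5 (66 cells, CD41- CDH5- TER119+) and E10.5 (3 cells, also CD45-), and endothelium (Endo) at E8.5 (79 cells, TER119- CD41- CDH5+) and E10.5 (61 cells, also CD45-). No label ties a cell to an embryo or pool, so each population counted as 1 sample and no difference between populations could be tested. Intervals are exact (Clopper-Pearson) 95% intervals of a share of cells and cover counting error alone. Where no cell held a gene, the upper limit given is 3 cells of the total.

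Filtered cells held between 483830 and 5943204 counts, with a median of 1887347. The E8.25, E8.5, E9.5 and E10.5 HPCs had medians of 1966444, 1555237, 3082737 and 1609583 counts, and the macrophages 3422342. Cells of E7.25, E8.25 and E8.5 were sequenced on one flow cell and those of E7.75, E9.5 and E10.5 on the other, so that between E8.5 and E9.5 the stage, the gate and the flow cell changed together and cannot be told apart. The CD45 requirement of the later gates was visible in the RNA, since *Ptprc*, which encodes CD45, was found in 1 of 73, 22 of 89, 46 of 46 and 83 of 87 HPCs from the earliest stage to the latest. The 4 macrophage markers *Csf1r*, *Cx3cr1*, *C1qb* and *C1qc* had a summed median of 2647 CPM in Mac and 0 in E8.25 and E8.5 HPCs. Markers did not set every population apart. In E8.5 Mk the summed median was 25294 CPM for 5 primitive erythroid markers and 183.6 CPM for 5 megakaryocyte markers, which were at 5331 CPM in E10.5 Mk. The sum of 8 progenitor markers had medians of 838 to 916 CPM in HPCs, but 1215 and 1305 CPM in E8.5 and E10.5 Mk. Transcripts of both sexes were present in 293 of 926 cells. They were in 26, 40, 13 and 19 HPCs in order of stage, 6 of 25 Mac, 59 of 79 E8.5 Endo and 26 of 61 E10.5 Endo. They were also in 16 of 37 E8.5 Mk, 8 of 73 E10.5 Mk and 30 of 66 E8.5 EryP. In these wells a transcript cannot be assigned to 1 cell. Levels are CPM scaled by the authors' size factors, and a gene counted as found in a cell at 1 count or more.

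The genes lie on 4 chromosomes of GRCm38. *Spi1* spans chr2:91082390-91115756 and *Cebpb* chr2:167688915-167690418, both on the plus strand. *Irf5* spans chr6:29526625-29541871 and *Cebpa* chr7:35119293-35121928, also on the plus strand. *Irf8* (chr8:120736358-120756694, plus strand) and *Maf* (chr8:115682942-115707794, minus strand) share a chromosome. Counting was per gene over exons, and a setting for strand is not given in the sources used here. Of the exonic bases, 312 of 1504 in *Cebpb* were shared with *Tmem189*, 411 of 2905 in *Irf5* with *Tnpo3*, 440 of 8241 in *Maf* with *Gm15655*, which held no counts, and 51 of 2636 in *Cebpa* with *Gm45091*, so the levels of *Cebpb* and *Irf5* are the less certain ones. No exonic base of *Spi1* or *Irf8* was shared.

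The 250 bases before the start are printed for the 4 genes that were rare before E9.5 or found at low counts. No window was available for *Spi1* or *Maf*. The windows are RefSeq entries on GRCm38.p6, on the plus strand, at chr8:120736108-120736357 for *Irf8*, chr6:29526375-29526624 for *Irf5*, chr7:35119043-35119292 for *Cebpa* and chr2:167688665-167688914 for *Cebpb*. Capitals mark the STAT motif TTCNNNGAA, the single motif of 7 searched that was found in them.
Irf8: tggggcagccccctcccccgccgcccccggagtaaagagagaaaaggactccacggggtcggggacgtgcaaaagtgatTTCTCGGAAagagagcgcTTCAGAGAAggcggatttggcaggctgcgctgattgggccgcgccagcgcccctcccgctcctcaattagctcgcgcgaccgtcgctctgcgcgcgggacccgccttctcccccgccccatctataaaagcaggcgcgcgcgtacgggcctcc
Irf5: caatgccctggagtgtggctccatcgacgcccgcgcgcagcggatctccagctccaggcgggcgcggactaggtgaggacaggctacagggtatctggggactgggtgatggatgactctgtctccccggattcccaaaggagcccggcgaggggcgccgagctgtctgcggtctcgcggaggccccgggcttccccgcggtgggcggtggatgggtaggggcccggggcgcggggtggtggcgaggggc
Cebpa: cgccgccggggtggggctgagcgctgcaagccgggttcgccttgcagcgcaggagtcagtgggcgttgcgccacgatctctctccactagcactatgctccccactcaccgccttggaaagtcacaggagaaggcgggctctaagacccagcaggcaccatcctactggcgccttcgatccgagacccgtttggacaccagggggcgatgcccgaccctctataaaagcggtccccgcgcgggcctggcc
Cebpb: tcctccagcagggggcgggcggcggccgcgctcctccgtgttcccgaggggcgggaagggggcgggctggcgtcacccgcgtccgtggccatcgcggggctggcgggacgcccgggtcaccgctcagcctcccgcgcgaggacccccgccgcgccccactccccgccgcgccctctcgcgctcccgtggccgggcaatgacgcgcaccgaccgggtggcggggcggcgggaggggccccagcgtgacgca

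The STAT motif occurred at both TTCTCGGAA and TTCAGAGAA in the printed *Irf8* window, at positions -171 and -153 from the gene's start, and 7.02% of 32851 RefSeq windows of the same length held it at least once. It reads alike on both strands. The PU.1 core GAGGAA (in 23.2% of all windows), the ETS-IRF composite of GGAA and GAAA 2 bases apart (2.30%), the IRF repeat of GAAA and GAAA 2 bases apart (2.98%), the C/EBP motif TTGCNNAA (9.56%), the MAF motif TGCTGAC (3.81%) and the GATA motif GATAAG (6.55%) were searched on both strands and are not in these 4 windows. GC content was 81.6% for *Cebpb*, 72% for *Irf5*, 67.2% for *Irf8* and 66.4% for *Cebpa*. A second *Irf8* window, at chr8:120738389-120738638 and with a GC content of 54%, held none of the motifs searched and is not printed.

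*Maf* and *Spi1* were the first of the 6 to be found in 50% or more of HPCs, both at E8.25, followed by *Cebpb*, *Irf8* and *Irf5* at E9.5, while *Cebpa* stayed under 50% at every stage. The plot of HPC shares shows this order. For *Spi1* the E8.25 share lay close to the line, at 52.1% (40.0 to 63.9%), and it was 45.8% when all cells were thinned to 840000 counts, 48.1% over all captured cells and 48.9% without cells carrying transcripts of both sexes. At 10 counts or more, the 50% line was reached by *Maf* alone at E8.25 and E8.5, by *Maf* and *Spi1* at E9.5 and by *Spi1* alone at E10.5.

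**Figure D1:**
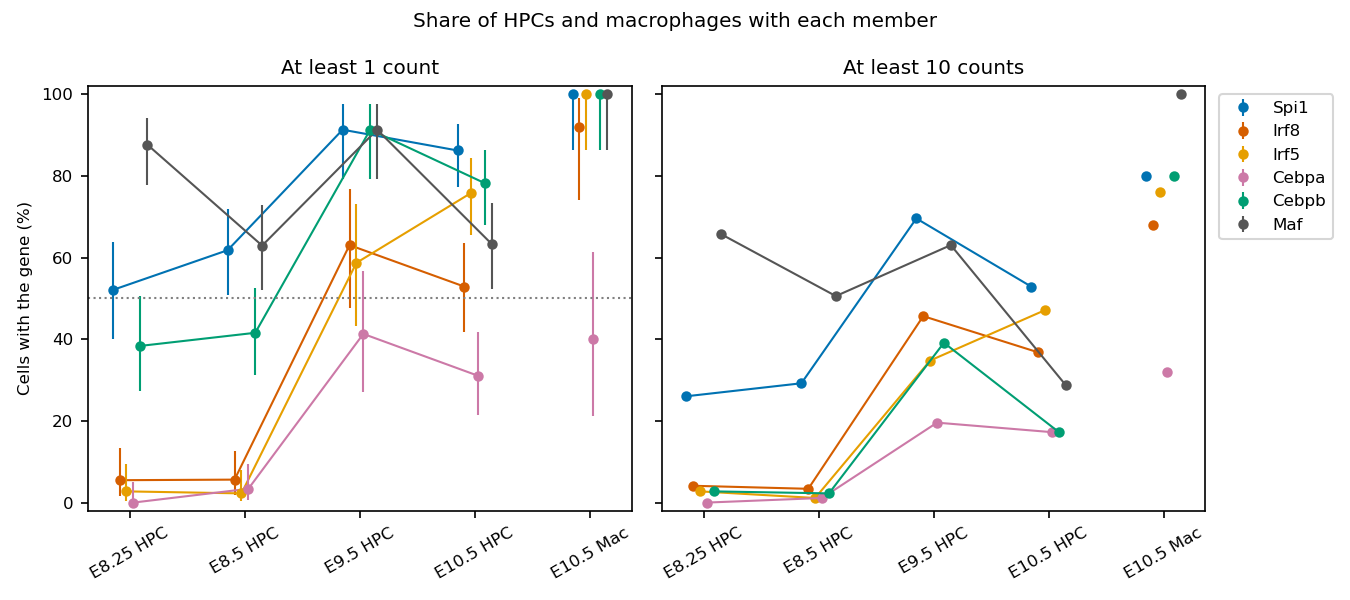
Share of cells (%) with each of the 6 genes in HPCs of 4 stages and in E10.5 macrophages, at 1 count or more (left, bars are exact 95% intervals, dotted line at 50%) and at 10 counts or more (right). *Spi1* and *Maf* sit above the dotted line at E8.25, and *Irf8*, *Irf5* and *Cebpa* stay below 6% until E9.5.

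*Spi1* was found in 38 of 73 HPCs at E8.25 and in 55 of 89 (61.8%, 50.9 to 71.9%) at E8.5. The level ran from 0 through a median of 0.488 to 42.1 CPM at E8.25, and from 0 through 2.16 to 54.3 CPM at E8.5. These 2 stages overlapped almost wholly, and 26.0% and 29.2% of their cells held 10 counts or more. At E9.5 *Spi1* was found in 42 of 46 cells (91.3%, 79.2 to 97.6%), with a median of 11.6 and a highest value of 134.8 CPM, and at E10.5 in 75 of 87 cells (86.2%, 77.2 to 92.7%), with a median of 6.97 and a highest value of 58.4 CPM. The intervals of the 2 later stages overlapped each other and lay above those of the 2 earlier stages. Every one of 25 macrophages held *Spi1*, from 0.859 through a median of 25.3 to 191 CPM, and the range in E9.5 HPCs covered most of this.

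*Maf* was found in 64 of 73 HPCs at E8.25 (87.7%, 77.9 to 94.2%), with a median of 44.7 and a highest value of 1576 CPM. At E8.5 the share was 56 of 89 (62.9%, 52.0 to 72.9%), with a median of 8.80 and a highest value of 1724 CPM, and its interval did not reach that of E8.25. At E9.5 it was 42 of 46 (91.3%, 79.2 to 97.6%), with a median of 34.8 CPM, and at E10.5 it was 55 of 87 (63.2%, 52.2 to 73.3%), with a median of 0.579 and a highest value of 4071 CPM. The *Maf* share was thus lower at E8.5 and E10.5 than at E8.25 and E9.5. A single E9.5 cell held 25791 CPM and 81.7% of the summed level, and the E9.5 mean per kilobase of exon was 83.2 CPM with it and 15.5 CPM without it. Without the 41 E10.5 HPCs that held *C1qb* or *C1qc*, *Maf* was found in 45.7% of the rest. In captured E10.5 EryP that failed the filter, a cell type that should lack *Maf*, 11 of 22 held fewer than 10 counts of it, against 0 of 18 at E8.5. HPC shares at 10 counts or more, which these cells do not reach, were 65.8%, 50.6%, 63.0% and 28.7% in order of stage.

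*Cebpb* showed an intermediate pattern of many cells at very low counts. It was found in 28 of 73 HPCs at E8.25 (38.4%, 27.2 to 50.5%) and 37 of 89 at E8.5 (41.6%, 31.2 to 52.5%), but 26 of the 28 and 35 of the 37 held 1 to 9 counts. Highest values were 25.1 and 6.61 CPM. In E8.5 EryP it was found in 10 of 66 cells (15.2%, 7.51 to 26.1%), none of them at 10 counts or more. At E9.5 *Cebpb* was in 42 of 46 cells (91.3%, 79.2 to 97.6%) and at E10.5 in 68 of 87 (78.2%, 68.0 to 86.3%). Medians there were 1.81 and 1.85 CPM, highest values were 104.8 and 69.2 CPM, and 39.1% and 17.2% of cells held 10 counts or more.

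*Irf8* was rare in the early HPCs, with 4 of 73 cells at E8.25 (5.48%, 1.51 to 13.4%) and 5 of 89 at E8.5 (5.62%, 1.85 to 12.6%). The highest values were 31.1 and 42.9 CPM, and 3 cells of each stage held 10 counts or more. It was found in 29 of 46 HPCs at E9.5 (63.0%, 47.6 to 76.8%), from 0 through a median of 0.832 to 448 CPM, and in 46 of 87 at E10.5 (52.9%, 41.9 to 63.7%), from 0 through 0.508 to 417 CPM. The early and late intervals were far apart, while the 2 late ones overlapped. Mean *Irf8* was 0.849 CPM at E8.5 and 39.8 CPM at E9.5.

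*Irf5* was found in 2 of 73 HPCs at E8.25 (2.74%, 0.333 to 9.55%) and 2 of 89 at E8.5 (2.25%, 0.273 to 7.88%). At E9.5 it was found in 27 of 46 (58.7%, 43.2 to 73.0%), with a median of 0.357 and a highest value of 156.3 CPM. At E10.5 the share was 66 of 87 (75.9%, 65.5 to 84.4%), with a median of 2.73 and a highest value of 523 CPM. *Irf5* was the one gene of the 6 whose share and mean were higher at E10.5 than at E9.5, although the intervals of the shares overlapped. After thinning to 840000 counts the E9.5 share was 44.4% and the E10.5 share 70.4%.

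*Cebpa* was found in 0 of 73 HPCs at E8.25, which allows a share of up to 4.11%, and in 3 of 89 at E8.5 (3.37%, 0.702 to 9.54%). It was in 19 of 46 cells at E9.5 (41.3%, 27.0 to 56.8%) and 27 of 87 at E10.5 (31.0%, 21.6 to 41.9%), with medians of 0 and highest values of 153.8 and 51.1 CPM. The late intervals overlapped and both lay above the E8.5 interval. The highest E9.5 cell carried 56.3% of the summed level, and the mean was 5.94 CPM with it and 2.66 CPM without it. That cell held *Gata1* at 426 CPM, *Mpo* at 339 CPM and no *Spi1*.

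**Figure D2:**
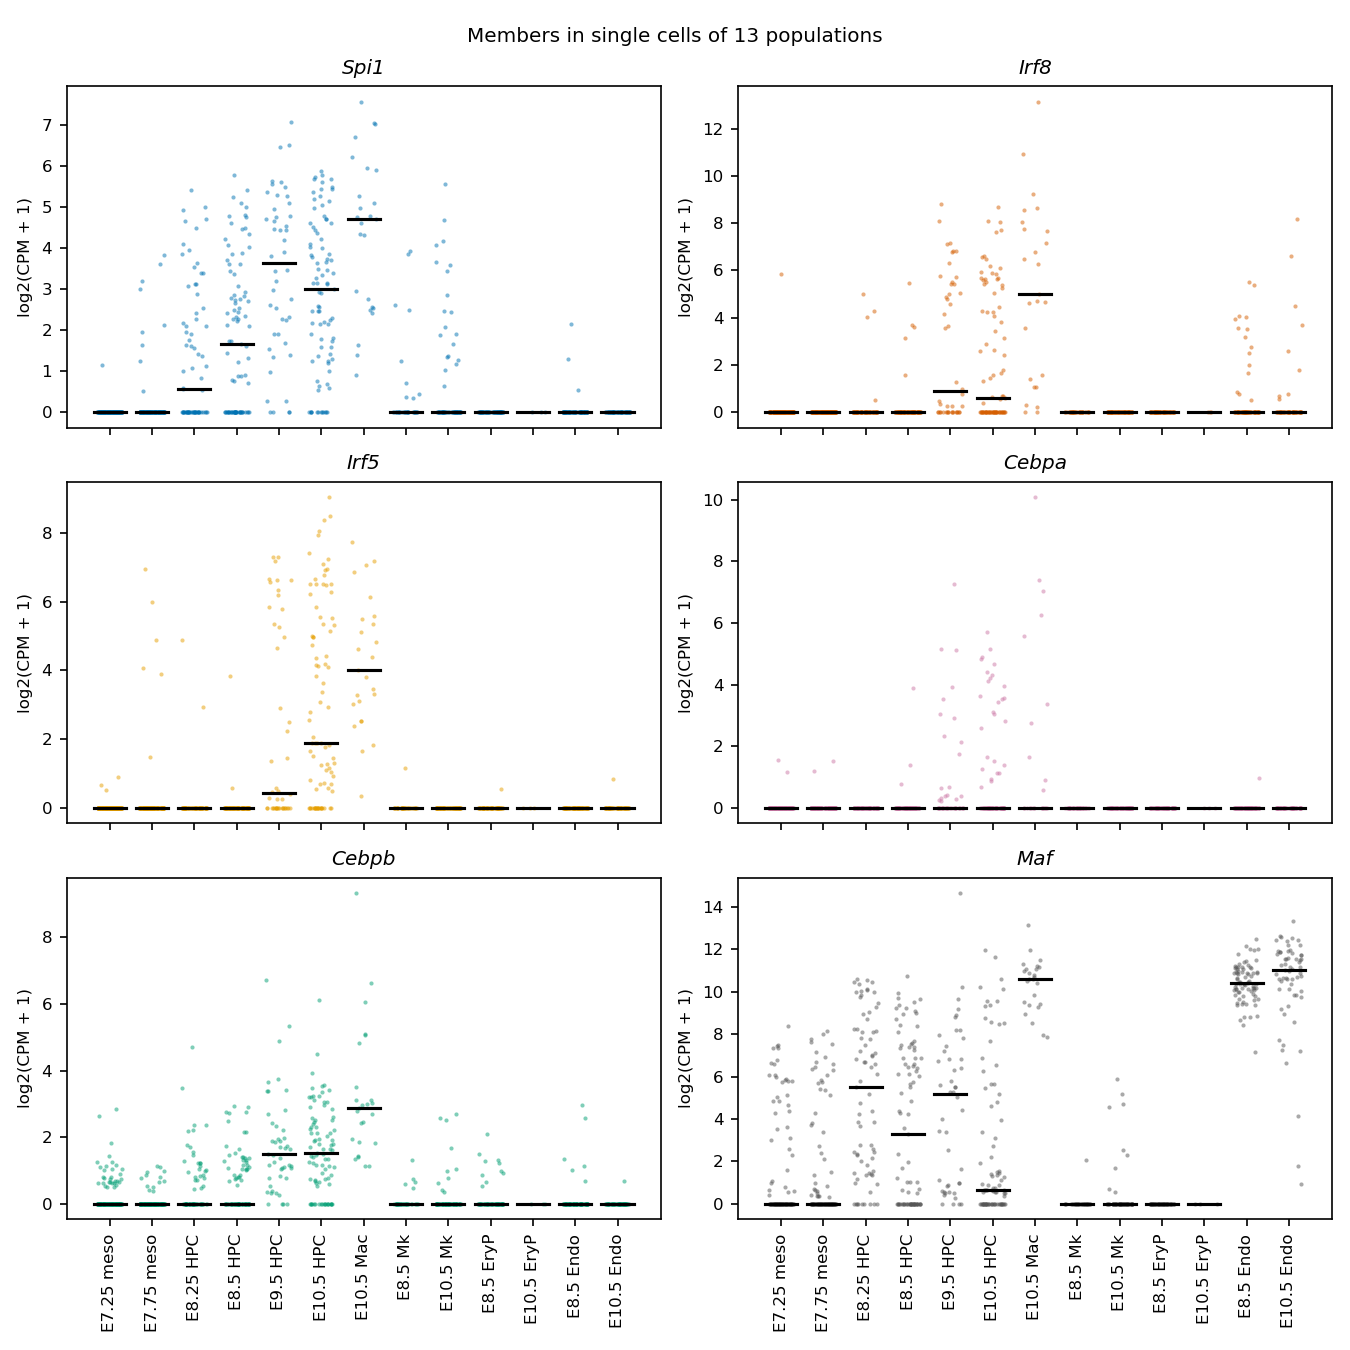
Level of each of the 6 genes in every filtered cell of the 13 populations, as log2(CPM + 1), with black lines at the median of the population. *Irf5* and *Cebpa* points lie mostly in the later HPCs and Mac, whereas *Maf* medians are highest in both endothelial populations and Mac.

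The ratios of mean levels between neighbouring stages followed the shares. They are given as log2 of mean CPM + 1, which understates the difference for genes at low levels, and a gene was counted as higher or lower at 2-fold. From E8.25 to E8.5 none of the 6 was 2-fold higher, where 2.86% of 8879 tested genes were. Only 1 of the 6, *Maf*, reached the mean of 10 CPM in either population that tested genes have. The count therefore says little about the others. From E8.5 to E9.5 all 6 were 2-fold higher, where 11.5% of 9250 tested genes were higher and 13.1% lower. The log2 ratios were 4.62 for *Irf5*, 4.46 for *Irf8*, 2.55 for *Cebpa*, 2.26 for *Maf*, 1.97 for *Cebpb* and 1.52 for *Spi1*, with a median of 2.41 against -0.03 over the tested genes. Without the highest cell of each population 5 of the 6 were 2-fold higher, since *Maf* was then at 0.05, and *Cebpa* was at 1.83. Of the 6, 4 passed the filter for tested genes, a mean of 10 CPM in either population, since *Cebpa* and *Cebpb* were below it. *Spi1*, *Irf8* and *Irf5* passed through their E9.5 means alone, so the shares of tested genes are not a like comparison for them. Over all 15967 genes without the filter 10.6% were 2-fold higher. The stage step shared its place with the change of gate and flow cell. Erythroid transcripts were lower over this step, with log2 ratios of -10.84 for *Hbb-bh1*, -8.38 for *Hba-x*, -7.25 for *Hbb-y* and -5.28 for *Alas2*, embryonic globin genes and a gene of haem synthesis. *Hba-x* was found in 82 of 89 E8.5 HPCs, with a mean of 341 CPM, and in 1 of 46 E9.5 HPCs. The part of these levels in the ratios of the 6 genes was not tested.

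From E9.5 to E10.5 none of the 6 was 2-fold higher, against 5.86% of 9050 tested genes, and only *Maf* was 2-fold lower, at -1.86, against 8.73%. That value rested on the E9.5 cell with 25791 CPM, and without the highest cell of each population it was 0.15. The ratio was 0.65 for *Irf5* and lay between -0.65 and -0.43 for the other 4, of which *Cebpa* was at 0.23 without the highest cells. Here 4 of the 6 passed the filter for tested genes, and *Cebpa* and *Cebpb* were below it. Compared over the longer interval, E10.5 over E8.5, *Irf5* (5.27), *Irf8* (4.04), *Cebpa* (2.03) and *Cebpb* (1.40) were 2-fold higher and *Spi1* (0.87) and *Maf* (0.40) were not, where 9.02% of 9184 tested genes were higher. Of the higher genes, *Irf5* and *Irf8* passed the filter, through their E10.5 means alone, and *Cebpa* and *Cebpb* did not. Over all 15967 genes without the filter 9.71% were higher.

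Macrophages held 5 of the 6 genes in most cells. *Spi1*, *Irf5*, *Cebpb* and *Maf* were found in 25 of 25 (86.3 to 100%), *Irf8* in 23 (92%, 74.0 to 99.02%) and *Cebpa* in 10 (40%, 21.1 to 61.3%). Compared per kilobase of exon, the median level in Mac was 192 CPM per kb for *Maf*, 9.38 for *Spi1*, 5.21 for *Irf5*, 4.45 for *Irf8*, 4.25 for *Cebpb* and 0 for *Cebpa*. *Maf* thus stood well above the other 5, and its lowest macrophage, at 229 CPM, was above the medians of all 4 HPC stages. *Irf8* ran from 0 through 31.4 to 9139 CPM, *Irf5* from 0.261 through 15.1 to 212 CPM, *Cebpb* from 1.20 through 6.38 to 643 CPM and *Maf* to 9154 CPM from a median of 1579 CPM. Against E10.5 HPCs, 5 of 6 means were 2-fold higher in Mac, at log2 ratios of 4.17 for *Irf8*, 3.67 for *Cebpa*, 3.28 for *Maf*, 3.04 for *Cebpb* and 1.56 for *Spi1*, while *Irf5* was at -0.13. Among 9300 tested genes 22.4% were higher and 24.4% lower, and none of the 6 was 2-fold lower. *Cebpa* and *Cebpb* passed the filter for tested genes through Mac alone. Over all 15967 genes without the filter 16.1% were higher in Mac.

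Single cells carried much of 3 of these means. The macrophage with 9139 CPM of *Irf8* held 66.9% of its summed level and, at 643 CPM, 65.0% of that of *Cebpb*, and means without the highest cell were 188 CPM instead of 546 CPM for *Irf8* and 14.4 CPM instead of 39.6 CPM for *Cebpb*. A different macrophage held 71.0% of *Cebpa*, whose mean was 60.6 CPM with it and 18.3 CPM without it. All 5 genes stayed 2-fold higher than in E10.5 HPCs when the highest cell of each population was left out, with log2 ratios of 2.87 for *Irf8*, 2.17 for *Cebpa* and 1.89 for *Cebpb*. For *Irf5* the median was 15.1 CPM in Mac against 2.73 CPM in E10.5 HPCs, although the means, 40.0 and 43.7 CPM, were alike.

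Outside HPCs and macrophages the genes differed widely from each other. *Maf* was found in 79 of 79 E8.5 Endo, from 142.2 through 1375 to 5696 CPM, and in 61 of 61 E10.5 Endo, from 0.918 through 2059 to 10424 CPM, ranges that overlapped that of Mac. In Flk1-GFP+ mesoderm 37 cells held it at E7.25 (25.2%, 18.4 to 33.0%) and 39 of 140 at E7.75 (27.9%, 20.6 to 36.1%), against 0 of 66 filtered EryP at E8.5. *Spi1* was found in 9 of 37 E8.5 Mk (24.3%, 11.8 to 41.2%) and 20 of 73 E10.5 Mk (27.4%, 17.6 to 39.1%), 4 and 10 of them at 10 counts or more, but in 0 of 66 E8.5 EryP, which allows up to 4.55%, and 0 of 61 E10.5 Endo. Transcripts of both sexes were in 16 of 37 E8.5 Mk and 8 of 73 E10.5 Mk wells, where *Spi1* cannot be assigned to 1 cell. In E8.5 Endo *Spi1* was in 3 of 79 cells (3.80%, 0.790 to 10.7%), up to 3.41 CPM. It was in 9 of 140 mesodermal cells at E7.75 (6.43%, 2.98 to 11.9%) and in a single E7.25 cell.

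*Irf8* was found in endothelium in 15 of 79 E8.5 cells (19.0%, 11.0 to 29.4%) and 9 of 61 E10.5 cells (14.8%, 6.98 to 26.2%). Its E8.5 share was above the 5.62% of E8.5 HPCs, though the intervals overlapped, and it was in 0 of 110 Mk and 0 of 69 EryP. The 4 macrophage markers were low in these endothelial cells, at a summed highest level of 1.85 CPM at E8.5 and 0 at E10.5. Transcripts of both sexes were in 59 of 79 endothelial wells at E8.5 and 26 of 61 at E10.5. In such wells neither *Irf8* nor *Maf* can be assigned to 1 cell. *Irf5* and *Cebpa* were found in at most 1 cell of each Mk, EryP and Endo population. *Cebpb* was more widespread at low counts, in 21.1% of E7.25 cells (14.8 to 28.6%), 13 of 140 E7.75 cells (9.29%, 5.04 to 15.4%), 5 of 37 E8.5 Mk (13.5%, 4.54 to 28.8%) and 10 of 73 E10.5 Mk (13.7%, 6.77 to 23.8%). It was in 6 of 79 E8.5 Endo (7.59%, 2.84 to 15.8%) and 1 of 61 E10.5 Endo, and its highest value over these 6 populations was 6.87 CPM. In mesoderm, *Irf5* was in 6 of 140 cells at E7.75 (4.29%, 1.59 to 9.10%), with a highest value of 123.4 CPM.

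More of the 6 genes were found per HPC at E9.5 than at E8.5. Gate and flow cell changed over this step, and median depth was 1555237 counts at E8.5 and 3082737 at E9.5. The numbers per cell are from cells at full depth. After thinning to 480000 counts, the E9.5 shares of *Cebpb* and *Cebpa* were 54.35% and 26.1%. The median number of the 6 found per cell was 2 at E8.25 and E8.5, 4 at E9.5 and E10.5, and 5 in Mac. No cell of the 2 earlier stages held more than 4, whereas all 6 were found together in 9 of 46 E9.5 HPCs, 11 of 87 E10.5 HPCs and 10 of 25 Mac. At E8.25 the commonest sets were *Maf* alone in 20 cells, *Spi1* with *Maf* in 16, and *Spi1*, *Cebpb* and *Maf* in 15. In Mac 13 cells held all but *Cebpa*. At 10 counts or more, all 6 were held by 1 E9.5 HPC, 3 E10.5 HPCs and 5 Mac. Wells with transcripts of both sexes are included in these counts and in those of gene pairs below, so genes found together may come from different cells.

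**Figure D3:**
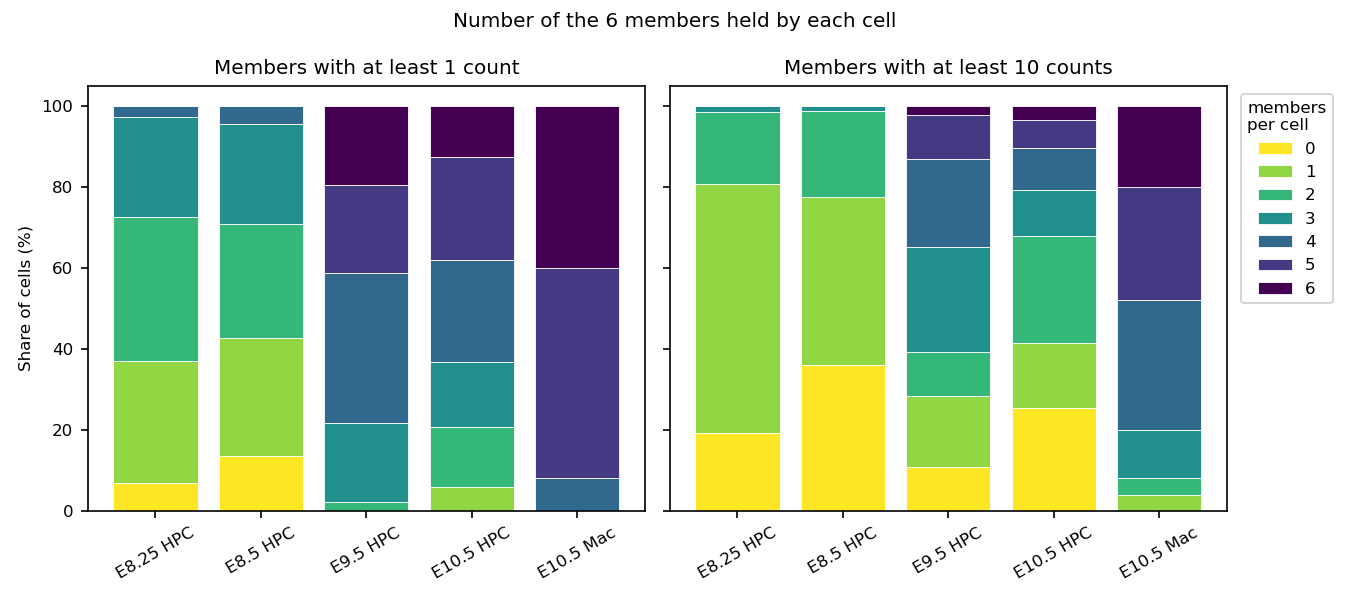
Share of cells (%) by how many of the 6 genes they held, at 1 count or more (left) and at 10 counts or more (right), in HPCs of 4 stages and in Mac. The darkest segments, 5 or 6 genes in 1 cell, appear from E9.5 onwards in both panels.

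Most cells with a later gene also held *Spi1*. Among cells with *Irf8*, *Spi1* was found in 27 of 29 at E9.5, 43 of 46 at E10.5 and 23 of 23 in Mac, but in 2 of 4 at E8.25 and 2 of 5 at E8.5. Of cells with *Irf5*, 23 of 27 held *Spi1* at E9.5 and 57 of 66 at E10.5. Of cells with *Cebpa*, 17 of 19 held *Spi1* at E9.5 and 25 of 27 at E10.5, and 19 of 19 and 23 of 27 held *Cebpb*. These counts are read against a *Spi1* share of 91.3% at E9.5 and 86.2% at E10.5, so they describe overlap near that which the *Spi1* share alone gives.

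*Csf1r*, the receptor for macrophage colony-stimulating factor and a known PU.1 target, was unevenly spread at E8.5. It was found in 31 of 55 cells with *Spi1* and 4 of 34 cells without it, and the rank correlation of the 2 genes across 89 cells was 0.44. The same correlation was 0.11 at E8.25, 0.16 at E9.5, 0.38 at E10.5 and -0.19 in Mac. CD45 transcript was similarly placed, since 19 of 22 *Ptprc* cells held *Spi1* at E8.5. *Irf8* and *Csf1r* had rank correlations of 0.48 over 46 cells at E9.5 and 0.69 over 87 cells at E10.5. At E8.25, at E8.5 and in Mac these were 0.05, 0.14 and -0.03. *Irf8* and *Irf5* were at 0.37 at E9.5, 0.51 at E10.5 and -0.13 in Mac, and at -0.04 at both earlier stages. These points share a capture and a range of depths, and the correlations are descriptions.

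*Gata1*, the main erythroid and megakaryocytic regulator and a known antagonist of PU.1, was found together with *Spi1* in many cells. Of *Spi1* cells, 23 of 38 at E8.25, 38 of 55 at E8.5, 8 of 42 at E9.5 and 47 of 75 at E10.5 also held *Gata1*, as did 2 of 25 Mac. These counts include the 26, 40, 13 and 19 HPC wells with transcripts of both sexes, in order of stage, where the 2 genes may come from different cells. Rank correlations of the levels were -0.11, -0.44, -0.44 and -0.42 in order of stage. The share of *Gata1* cells itself was 65.8%, 77.5%, 21.7% and 63.2%, so E9.5 was lowest for *Gata1* while it was highest for *Spi1*.

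**Figure D4:**
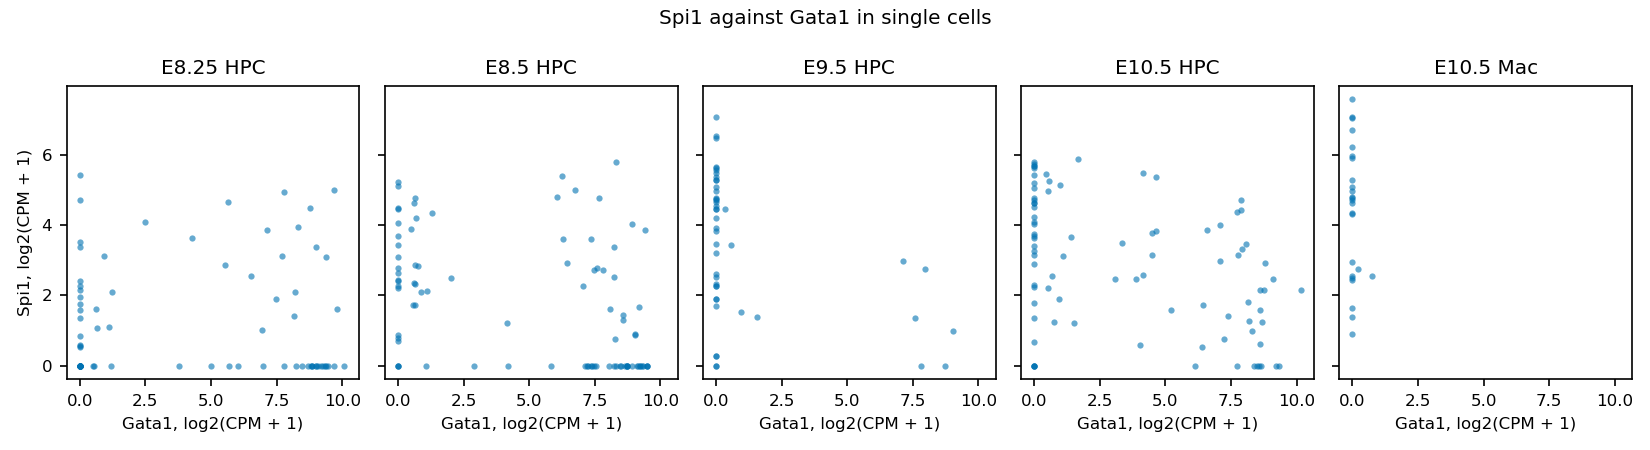
*Spi1* against *Gata1*, both as log2(CPM + 1), in single HPCs of 4 stages and in Mac, with 1 point per cell. From E8.5 cells with the highest *Gata1* tend to hold little *Spi1*, and 23 of 25 Mac lie at a *Gata1* of 0.

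*Maf* followed different genes at different stages. Across E8.25 and E8.5 HPCs its rank correlation with the summed level of 7 endothelial markers was 0.69 and 0.53, and with the 4 macrophage markers 0.13 and 0.26. At E9.5 the correlation was -0.26 with the endothelial sum and 0.39 with the macrophage sum. At E10.5 it was 0.00 with the endothelial sum and 0.56 with the macrophage sum, and in Mac -0.47 and 0.24. With the sum of 6 mesoderm markers, whose median was 0 in these HPCs, *Maf* was at 0.55, 0.36 and 0.33 at E8.25, E8.5 and E10.5. The endothelial sum had medians of 769 and 467 CPM in E8.25 and E8.5 HPCs, ranging from 3.69 to 5013 and 6.86 to 2947 CPM, and 79.5 and 85.7 CPM at E9.5 and E10.5, where the ranges were 0 to 1624 and 0 to 2392 CPM. The macrophage sum ran to 152.4, 182, 1490 and 4775 CPM in order of stage, with *Cx3cr1* and *C1qc* at 0 at E8.25. The E10.5 HPC with the most *Maf*, 4071 CPM, held *Cdh5* at 662 CPM and no *Spi1*, and the next, 3215 CPM, held *Cx3cr1* at 2003 CPM. The part of these marker levels in the *Maf* values was not tested.

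**Figure D5:**
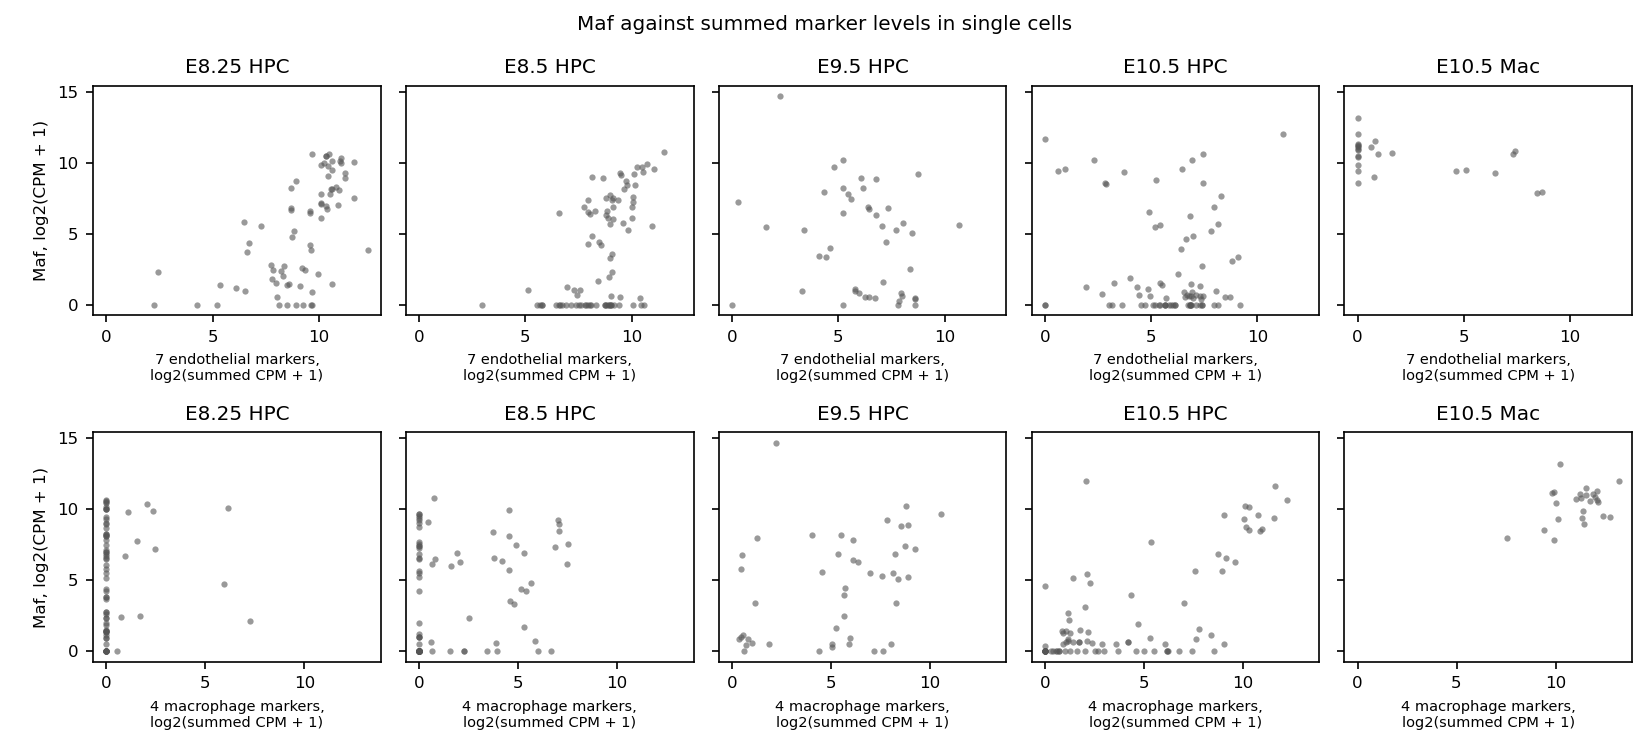
*Maf* in single HPCs and Mac, as log2(CPM + 1), against the summed CPM of 7 endothelial markers (top) and of 4 macrophage markers (bottom), both as log2(sum + 1). At E8.25 and E8.5 *Maf* is higher where the endothelial sum is higher (rank correlations 0.69 and 0.53), and at E10.5 where the macrophage sum is higher (0.56).

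Relatives of the 6 genes were examined in the same way. Of 20 other SPI, IRF, C/EBP and MAF family genes, 13 are in the table, and from E8.5 to E9.5 *Irf9* (2.66), *Irf1* (1.91) and *Irf2* (1.35) were 2-fold higher and *Cebpg* (-1.19) lower on the log2 scale, of 7 that passed the filter, where 11.5% of all tested genes were higher. *Irf1*, an interferon-induced activator, was found in 20.2% of E8.5 and 65.2% of E9.5 HPCs. In Mac over E10.5 HPCs *Irf9*, *Mafk*, *Mafg* and *Irf7* were 2-fold higher of 10 that passed, against 22.4% of all tested genes, but the mean of *Irf9* in Mac, 469 CPM, stood on 1 cell at 11044 CPM beside a median of 0.515 CPM. Among 19 other myeloid regulators in the table, *Ikzf1*, *Klf4*, *Egr1* and *Atf3* were 2-fold higher at E9.5 and none of the 10 that passed was lower, against 11.5% and 13.1% of all tested genes. In these lists too a gene could pass the filter through 1 population alone, and without the filter 10.6% of all genes were higher at E9.5. *Ikzf1*, which encodes the lymphoid and myeloid regulator Ikaros, was already in 76.7% of E8.25 HPCs and in 92.1%, 100% and 98.9% of the later ones.

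Many genes known as targets of these factors differed over the same E8.5 to E9.5 step. Of 40 macrophage and monocyte genes 25 passed the filter, and 22 were 2-fold higher and 1, *Mrc1*, lower at E9.5, beside 11.5% and 13.1% of all tested genes, with a median log2 ratio of 2.40 against -0.03 over all tested genes. Genes such as *Cybb*, with means of 0 CPM at E8.5 and 62.8 CPM at E9.5, passed through E9.5 alone. For them the shares of tested genes are not a like comparison. Over all 15967 genes without the filter 10.6% were 2-fold higher. *Lcp1*, an actin-bundling protein of white cells, had means of 24.7, 67.3, 680 and 918 CPM from E8.25 to E10.5 and 2067 CPM in Mac. *Coro1a*, which encodes the leukocyte actin regulator coronin, had means of 38.1, 95.8, 509 and 504 CPM and 2018 CPM in Mac. *Mrc1*, the mannose receptor of macrophages and of some endothelium, went the other way, at 164, 131.5, 10.1 and 265 CPM in HPCs and 3493 CPM in Mac. Several genes of this list are the study's own macrophage markers, and *Ptprc* encodes the CD45 used to gate the later HPCs, so the list is not independent of the sort.

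Of 14 granule genes in the table, 6 of 7 that passed were 2-fold higher at E9.5 than at E8.5 and 5 of 10 were higher again at E10.5, where 11.5% and 5.86% of all tested genes were. *Igsf6*, *Prtn3* and *Srgn* passed the first comparison through E9.5 alone, with means of 0.368, 4.28 and 9.66 CPM at E8.5. Over all 15967 genes without the filter 10.6% and 9.1% were higher. *Mpo*, the myeloperoxidase of granulocyte and monocyte precursors, had means of 5.43, 15.1, 295 and 1202 CPM in HPCs and 11.1 CPM in Mac, and was found in 87 of 87 E10.5 HPCs. It was thus present in all 27 E10.5 cells with *Cebpa* and all 60 without it, and the rank correlation of the 2 levels was 0.34. In Mac over E10.5 HPCs 0 granule genes were higher and 5 were lower, *Mpo*, *Prtn3*, *Srgn*, *Hp* and *Nkg7*, while 27 of 38 macrophage genes were higher and 0 lower, beside 22.4% higher and 24.4% lower over all tested genes. Without the filter 16.1% of all 15967 genes were higher in Mac. Erythroid and megakaryocytic regulators were lower in Mac for 5 of 6 that passed, with *Gata1* at -6.87 and *Gata2* at -4.38 on the log2 scale.

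Over the 12 populations with more than 3 cells, the genes whose mean levels were most like each of the 6, by Pearson correlation of log2(mean CPM + 1) among 12318 genes, were as follows. *Spi1* was closest to *Fam105a* (0.977), *Arhgap9* (0.972) and *Arhgap30* (0.966). *Irf8* was closest to *Tnfrsf11a* (0.973), *Psmb9* (0.972) and *Gpsm3* (0.964), and *Irf5* to *Parvg* (0.982), *Selplg* (0.980) and *Cybb* (0.979). *Cebpa* and *Cebpb* shared *Tnf* (0.994 and 0.986), beside *Cd14* and *Hcar2* for the first and *Gm26740* and *Cd86* for the second. *Maf* was closest to *Dusp7*, *Mtus1* and *Tgfbr2*, at 0.956, 0.956 and 0.955. Between the 6 genes the correlation was highest for *Cebpa* with *Cebpb* (0.98) and *Irf8* with *Cebpa* (0.95), and it was 0.41 for *Spi1* with *Maf*. The populations share flow cells and, in part, gates, and the values describe these 12 points. In the Mac means used here, 1 cell held 71.0% of summed *Cebpa*, and another held 66.9% of *Irf8* and 65.0% of *Cebpb*. The first also held *Cd14* at 5566 CPM, beside a Mac mean of 229.5 CPM. By rank correlation, none of the named genes was the closest to its gene. Values ran from 0.635 (*Tnfrsf11a* with *Irf8*) to 0.965 (*Dusp7* with *Maf*), with *Tnf* at 0.768 for *Cebpa*. Correlations without these cells were not tested.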

How the data were processed

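Single-cell RNA-seq of sorted mouse yolk sac cells was analysed from 2 kinds of deposited tables. The count values are read counts per gene, made by the authors with Rsubread alignment to the mouse genome (GRCm38) and featureCounts, before and after their scater filter on cells and genes. The signal values are CPM that the authors scaled by scran size factors. Their sums per cell lay between 699615 and 4176737. Alignment and counting were not redone. The submitters' processing notes name Subread and featureCounts. Reads of a full-length library carry no molecular identifiers, so 1 count is a read and not a molecule.

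Each sample is a cell, and cells were grouped by their stage and sorted population. Gene positions came from GENCODE M21 on GRCm38, which matched 15406 symbols. Genes entered a comparison with a mean of 10 CPM or more in either population. Ratios are log2 of mean CPM + 1 and were counted at 2-fold. A count of 0 allows a share of up to 3 cells of the total. Cells with 5 or more counts of both *Xist* and Y-linked genes were taken to carry transcripts of both sexes. The onset stage was the first HPC stage with a gene in 50% or more of cells. Named genes were the 6 genes, their relatives, the 3 target genes per list with the highest mean in Mac and in E10.5 HPCs, fixed partners, and the 3 most like genes per member. Other genes were named after their values were seen. The 6 genes and all lists were chosen with earlier results of these data known.

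Alternatives were 10 counts for a found gene, thinning of cells to 840000 or 480000 counts, 25% of cells for onset, all captured cells, leaving out cells with transcripts of both sexes, CPM from total counts, pseudocounts of 10 and 0.1, leaving out the highest cell, and, chosen after seeing the data, leaving out HPCs with *C1qb* or *C1qc*. Co-detection with *Ptprc*, *Csf1r* and *Cdh5* was also chosen after seeing the data. The code was tested on simulated data. Tables were handled with pandas 2.3.3 and numpy 2.4.6 under Python 3.11.15, intervals came from scipy 1.17.1 and plots from matplotlib 3.10.9.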

Additional observations from a re-analysis of the deposited data

Results flagged for a closer look

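Captured cells that failed the authors' filter were in none of the comparisons, and 5 of the 6 genes were found in some of them at shares above that of 40 failed EryP, the cells that should lack them. In 16 failed macrophages *Maf* was found in 100%, *Cebpb* in 87.5%, *Spi1* and *Irf8* in 68.8% each and *Irf5* in 43.8%. Among 12 failed E9.5 HPCs the shares were 83.3% for *Maf*, 75% for *Spi1* and 66.7% for *Cebpb*. The failed EryP held *Maf* in 11, *Irf8*, *Irf5* and *Cebpb* in 2 each and *Spi1* in 1 of 40 cells, and the 11 *Maf* cells were all from E10.5 and below 10 counts. *Cebpa* was in 2 of 16 failed macrophages and 1 of 12 failed E9.5 HPCs, with intervals that reached those of the failed EryP.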

How the results depend on the processing

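At 10 counts or more, 1, 1, 2 and 1 of the 6 genes reached 50% of HPCs from E8.25 to E10.5, against 2, 2, 5 and 5, *Spi1* did so at the stage numbered 3 of the 4 HPC stages (E9.5), and *Irf8*, *Irf5* and *Cebpb* did not at any HPC stage. The number at E8.25 was 1 under both thinnings, with all captured cells and without cells carrying transcripts of both sexes. It was 1 at E8.5 and 3 at E10.5 after thinning to 480000 counts, and 3 at E10.5 without HPCs holding *C1qb* or *C1qc*. *Spi1* reached 50% at stage 2 (E8.5) after thinning to 840000 counts, with all captured cells and without cells carrying transcripts of both sexes, at stage 3 after thinning to 480000 counts, and *Irf5* at stage 4 (E10.5) under both thinnings. *Maf* at E8.25 and *Irf8* and *Cebpb* at E9.5 kept their stage in every setting with 1 count and 50% of cells as the limits. For *Irf8* this was at the line, with E9.5 shares of 51.1% and 50% after thinning to 840000 and 480000 counts. *Cebpb* was then at 73.3% and 54.35%. With 25% of cells as the limit, *Cebpa* had its onset at stage 3 and *Cebpb* at stage 1 (E8.25). A pseudocount of 10 CPM left 3 genes 2-fold higher at E9.5 than E8.5 and 2 at E10.5 than E8.5, and 0.1 CPM made 1 higher at E8.5 than E8.25. Without the highest cell of each population *Maf* in E10.5 over E9.5 HPCs was 0.15 on the log2 scale, in place of -1.86, and in E9.5 over E8.5 HPCs it was 0.05, in place of 2.26. No paired analysis was possible because the cells carry no embryo or replicate that populations share. Thinning to 840000 counts left out 46 cells, 16 of them E10.5 HPCs. With 1 capture for each HPC stage and for Mac, the spread between embryos is unknown, and for genes near 1 count a cell without the gene may still hold its transcript.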

Other observations

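Some cells before E8.25 held a single gene of the 6 at a level above the lowest counts. In E7.25 mesoderm 1 cell (0.680%) held *Irf8*, at 56.9 CPM, and at E7.75, where *Irf8* was in 0 of 140 cells, *Irf5* reached 123.4 CPM. The macrophage with the most *Irf8* (9139 CPM) held *Csf1r* at 35.7 CPM and *C1qb* at 549 CPM. The one with the most *Cebpa* (1075 CPM) held *Csf1r* at 4938 CPM and *Cd14*, the co-receptor for bacterial lipopolysaccharide, at 5566 CPM. The E9.5 HPC with 25791 CPM of *Maf* had 503107 counts, *Ptprc* at 70.8 CPM, an endothelial marker sum of 3.72 CPM and no *Spi1*, *Irf8*, *Cebpa* or *Cebpb*. The E10.5 HPC with the most *Irf5* (523 CPM) was also the one with the most *Irf8* (417 CPM).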
